A study of Mus musculus with 2 samples.

Results

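The 8 genes described here are the Notch receptors Notch1, Notch2 and Notch3, the ligands Jag1, Jag2 and Dll1, and the target genes Hes1 and Hey1, chosen by symbol from the 56694 genes counted in the series. They were measured by single-cell RNA sequencing of mouse back skin epidermal whole mounts at postnatal day 2, in 1 library from control mice and 1 from Gli2EKO mice. Gli2EKO mice carry the K14Cre transgene, which drives Cre from the keratin 14 promoter in keratinocytes, with both Gli2 alleles floxed (K14Cre tg;Gli2 fl/fl, on C57Bl/6N), and the control mice, called WT in the labels, were floxed littermates without Cre. Gli2 encodes a transcription factor of the Hedgehog pathway, and dermal, melanocyte and immune cells of the Gli2EKO library are not the cells that the promoter is used to target. How many mice went into each library is not given in the sources used here. With 1 library per genotype there is no replicate error: no p-value is given, and every 95% interval below covers counting error only.

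Notch receptors are transmembrane proteins that are cut when a ligand on a neighbouring cell pulls on them. The freed intracellular part enters the nucleus, binds Rbpj and switches on target genes such as Hes1 and Hey1, which encode transcriptional repressors. In skin, Notch signalling is known for its role in the step from basal to suprabasal keratinocytes and in the inner layers of the hair follicle.

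The control library held 71021773 UMIs (unique molecular identifiers, each marking 1 captured RNA molecule) in 6326 barcodes, and the Gli2EKO library held 48866478 UMIs in 4296 barcodes. After filtering, 4456 control and 3093 Gli2EKO cells remained with close median depths of 11827.5 and 11936 UMIs, and the libraries shared 0 cell barcodes. Clusters were made without any Notch pathway gene and named from marker genes, which gave 17 classes with at least 20 cells in each library. Every named class detected most of its own markers in at least 10% of its cells. Clusters K9, N2 and N8 kept their numbers because their leading genes went against the nearest name: K9 was led by Flrt2 and Tagln, N2 by Tnmd and Acta2, and N8 by Dkk1 and Lxn. Interfollicular epidermal (IFE) cells made up 18.3% of control keratinocytes (609 of 3321) and 39.4% of Gli2EKO keratinocytes (910 of 2307). A value pooled over all keratinocytes therefore mixes classes in different proportions. Levels are in CPM, which scales each gene to a fixed total of UMIs within a class. Gli2 itself read 83.0 CPM in control and 84.6 CPM in Gli2EKO keratinocytes, and since UMIs are counted at the 3′ end of a transcript, whose overlap with the deleted part is not given here, this level does not check the genotype.

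In the GRCm39 build, the receptor genes lie at 2:26347915-26406675 (Notch1, minus strand, 34 exons), 3:97920800-98057677 (Notch2, plus strand, 34 exons) and 17:32339794-32385893 (Notch3, minus strand, 33 exons). The ligand genes lie at 2:136923373-136958693 (Jag1, minus strand, 26 exons), 12:112871421-112893437 (Jag2, minus strand, 26 exons) and 17:15587276-15597134 (Dll1, minus strand, 11 exons). The target genes are short, Hes1 at 16:29882134-29886643 (plus strand, 4 exons) and Hey1 at 3:8726956-8732385 (minus strand, 5 exons). UMIs are credited to whole genes, so isoforms are not told apart.

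The promoters of Notch3 and Jag2 are printed because these genes differed widely, in opposite directions, between basal-like and suprabasal-like epidermal cells. The windows run from 250 bases before to 50 bases after the transcription start (RefSeq, GRCm38.p6, minus strand, chr17:32166841-32167140 for Notch3 and chr12:112929446-112929745 for Jag2). Capitals mark GGGCGG or its reverse complement CCGCCC, the core of a GC box.
Notch3: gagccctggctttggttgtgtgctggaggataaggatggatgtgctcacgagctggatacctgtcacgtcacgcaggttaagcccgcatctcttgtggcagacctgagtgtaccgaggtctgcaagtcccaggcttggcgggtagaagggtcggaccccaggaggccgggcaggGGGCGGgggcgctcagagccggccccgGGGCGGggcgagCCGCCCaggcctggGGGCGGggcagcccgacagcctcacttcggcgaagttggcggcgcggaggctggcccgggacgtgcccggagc
Jag2: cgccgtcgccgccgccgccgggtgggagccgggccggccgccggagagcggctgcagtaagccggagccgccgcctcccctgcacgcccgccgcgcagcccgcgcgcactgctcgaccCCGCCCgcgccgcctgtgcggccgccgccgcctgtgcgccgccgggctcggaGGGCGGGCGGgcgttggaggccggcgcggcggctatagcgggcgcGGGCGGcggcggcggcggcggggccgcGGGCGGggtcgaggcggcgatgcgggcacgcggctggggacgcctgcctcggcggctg
The table used here held 7 promoters of 6 of the 8 genes, with Dll1 at 2 starts; Hes1 and Hey1 were not matched. GGGCGG on either strand, overlapping matches counted, occurred 5 times in the Notch1 window, 7 times in Notch2, 4 times in Notch3 and 5 times in Jag2, and 0 times in Jag1 and in both Dll1 windows. Of all 32851 promoters of the same length, 35.7% held it. TGGGAA, a core of Rbpj sites, on either strand occurred in 0 of the 7 windows and in 25.6% of all promoters. The GC content was 70.0% for Notch3 and 86.0% for Jag2, and 55.7% for Jag1.

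Of the receptors, Notch1, the receptor best known for its role in keratinocyte differentiation, had its highest level in inner root sheath (IRS)-like cells, the follicle layer that moulds the growing hair. There it read 371 CPM (351 to 391) in control and 345 CPM (317 to 375) in Gli2EKO cells. Hair shaft/lineage-like cells followed with 247 and 264 CPM, and companion layer-like cells with 200 and 184 CPM. IFE basal-like cells held 109 CPM (101 to 118) in control and 123 CPM (116 to 130) in Gli2EKO, and each of these steps in the order was wider than the counting intervals in both libraries. Below them the intervals of neighbouring classes overlapped: matrix/progenitor-like cells read 85.4 and 101 CPM, outer root sheath (ORS)-like cells 82.1 and 82.4 CPM, IFE suprabasal-like cells 91.8 and 80.7 CPM and upper follicle-like cells 74.0 and 70.1 CPM. Fibroblast-like cells held 23.0 and 18.6 CPM.

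Notch2 was spread over follicle and dermal classes. Its highest level was in cluster N8, at 122 CPM (94.7 to 154) in control and 196 CPM (158 to 240) in Gli2EKO cells, a cluster of 48 cells in each library. IRS-like cells held 103 and 115 CPM and fibroblast-like cells 72.9 and 68.7 CPM. Among epidermal cells, Notch2 read 59.7 and 49.6 CPM in the suprabasal-like and 26.0 and 19.7 CPM in the basal-like class. ORS-like cells read 21.0 and 18.3 CPM. Of the 2489 control UMIs of Notch2 in kept cells, 27.5% came from dermal cells (fibroblast-like, dermal papilla-like, N2 and N8), which held 16.5% of all UMIs.

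Notch3, known as the receptor of mural cells of blood vessels, was highest in pericyte/smooth muscle-like cells, at 896 CPM in control (26 cells) and 855 CPM in Gli2EKO (20 cells). Within keratinocytes its level was highest in inner follicle classes and the suprabasal-like class. It read 116 and 106 CPM in IRS-like cells, 82.9 and 109 CPM in companion layer-like cells and 69.7 and 69.5 CPM in IFE suprabasal-like cells. It was low in IFE basal-like cells (6.59 and 10.4 CPM), upper follicle-like cells (5.50 and 7.74 CPM) and matrix/progenitor-like cells (7.36 and 9.85 CPM). Hair shaft/lineage-like cells read 61.3 CPM in control and 117 CPM in Gli2EKO. This class placed second in the Gli2EKO order, with an interval that overlapped that of the companion layer-like class, and 1 of the top 3 classes was shared between the libraries for Notch3.

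Of the ligands, Jag1 had its peak in hair shaft/lineage-like cells, with 299 CPM (276 to 323) in control and 321 CPM (279 to 368) in Gli2EKO. Cluster K9 came next with 146 and 203 CPM, then companion layer-like cells with 142 and 136 CPM, dermal papilla-like cells with 127 and 133 CPM and ORS-like cells with 115 and 110 CPM. The intervals of the companion layer-like and dermal papilla-like classes overlapped in both libraries, as did those of the dermal papilla-like and ORS-like classes. Both IFE classes held less, between 42.0 and 56.4 CPM, and upper follicle-like cells held 25.8 and 22.1 CPM.

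Jag2 was highest in cluster K9, at 200 and 142 CPM. Upper follicle-like (116 and 92.9 CPM), ORS-like (105 and 87.6 CPM) and IFE basal-like cells (103 and 94.8 CPM) could not be ordered beyond counting error in either library, and hair shaft/lineage-like (94.9 and 78.7 CPM) and matrix/progenitor-like cells (94.4 and 73.7 CPM) came next with intervals that overlapped along the order. IFE suprabasal-like cells held 13.2 and 6.50 CPM and companion layer-like cells 13.3 and 6.33 CPM. Jag2 was nearly confined to keratinocytes: 1.89% of its control UMIs and 0.985% of its Gli2EKO UMIs came from all other cells, which held 22.1% and 19.8% of all UMIs.

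Dll1, a delta-type ligand, had sparse counts and a dermal peak. Dermal papilla-like cells, the mesenchymal cells that instruct the follicle, held 44.5 CPM (34.8 to 56.1) in control and 63.2 CPM (48.8 to 80.3) in Gli2EKO. Within that class, cluster N3 read 102 and 98.4 CPM and cluster N5 read 10.9 and 11.8 CPM. The dermal papilla-like cells were 81 of N3 and 112 of N5 in control against 96 and 59 in Gli2EKO, so that the clusters were mixed in different proportions. Among keratinocytes IFE basal-like cells were highest with 26.3 and 19.2 CPM. IRS-like cells gave 9 UMIs in control and 0 in Gli2EKO, where 3 UMIs, the limit that a count of 0 allows, would have been 1.82 CPM.

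Of the targets, Hes1 was the broader gene. It read 266 and 338 CPM in pericyte/smooth muscle-like cells, 219 CPM (206 to 232) and 208 CPM (197 to 219) in IFE suprabasal-like cells and 197 and 185 CPM in companion layer-like cells, and these were the top 3 classes in both libraries. IFE basal-like cells held 115 and 107 CPM, ORS-like cells 96.9 and 102 CPM and IRS-like cells 105 and 135 CPM. The lowest Hes1 level was in immune-like cells, with 12 and 3 UMIs.

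Hey1 was a gene of the dermal papilla-like class, with 76.5 CPM (63.5 to 91.3) in control and 89.9 CPM (72.7 to 110) in Gli2EKO. Cluster N8 followed with 19.4 and 19.2 CPM. In all keratinocytes together Hey1 gave 33 and 26 UMIs, or 0.716 and 0.778 CPM. Of its UMIs, 75.6% in control and 80.5% in Gli2EKO came from dermal cells, which held 16.5% and 15.9% of all UMIs.

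The order of the 17 classes was close between the libraries for most of these genes. Spearman's rho between the control and Gli2EKO levels over the 17 classes, a description of classes that share 2 libraries, was 0.97 for Notch1, 0.96 for Jag1, 0.95 for Jag2, 0.88 for Dll1, 0.87 for Notch3, 0.78 for Hes1 and 0.65 for Notch2. It was 0.41 for Hey1, for which most classes held only a few UMIs. The plot of levels by class shows the same values for both libraries.

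**Figure D1:**
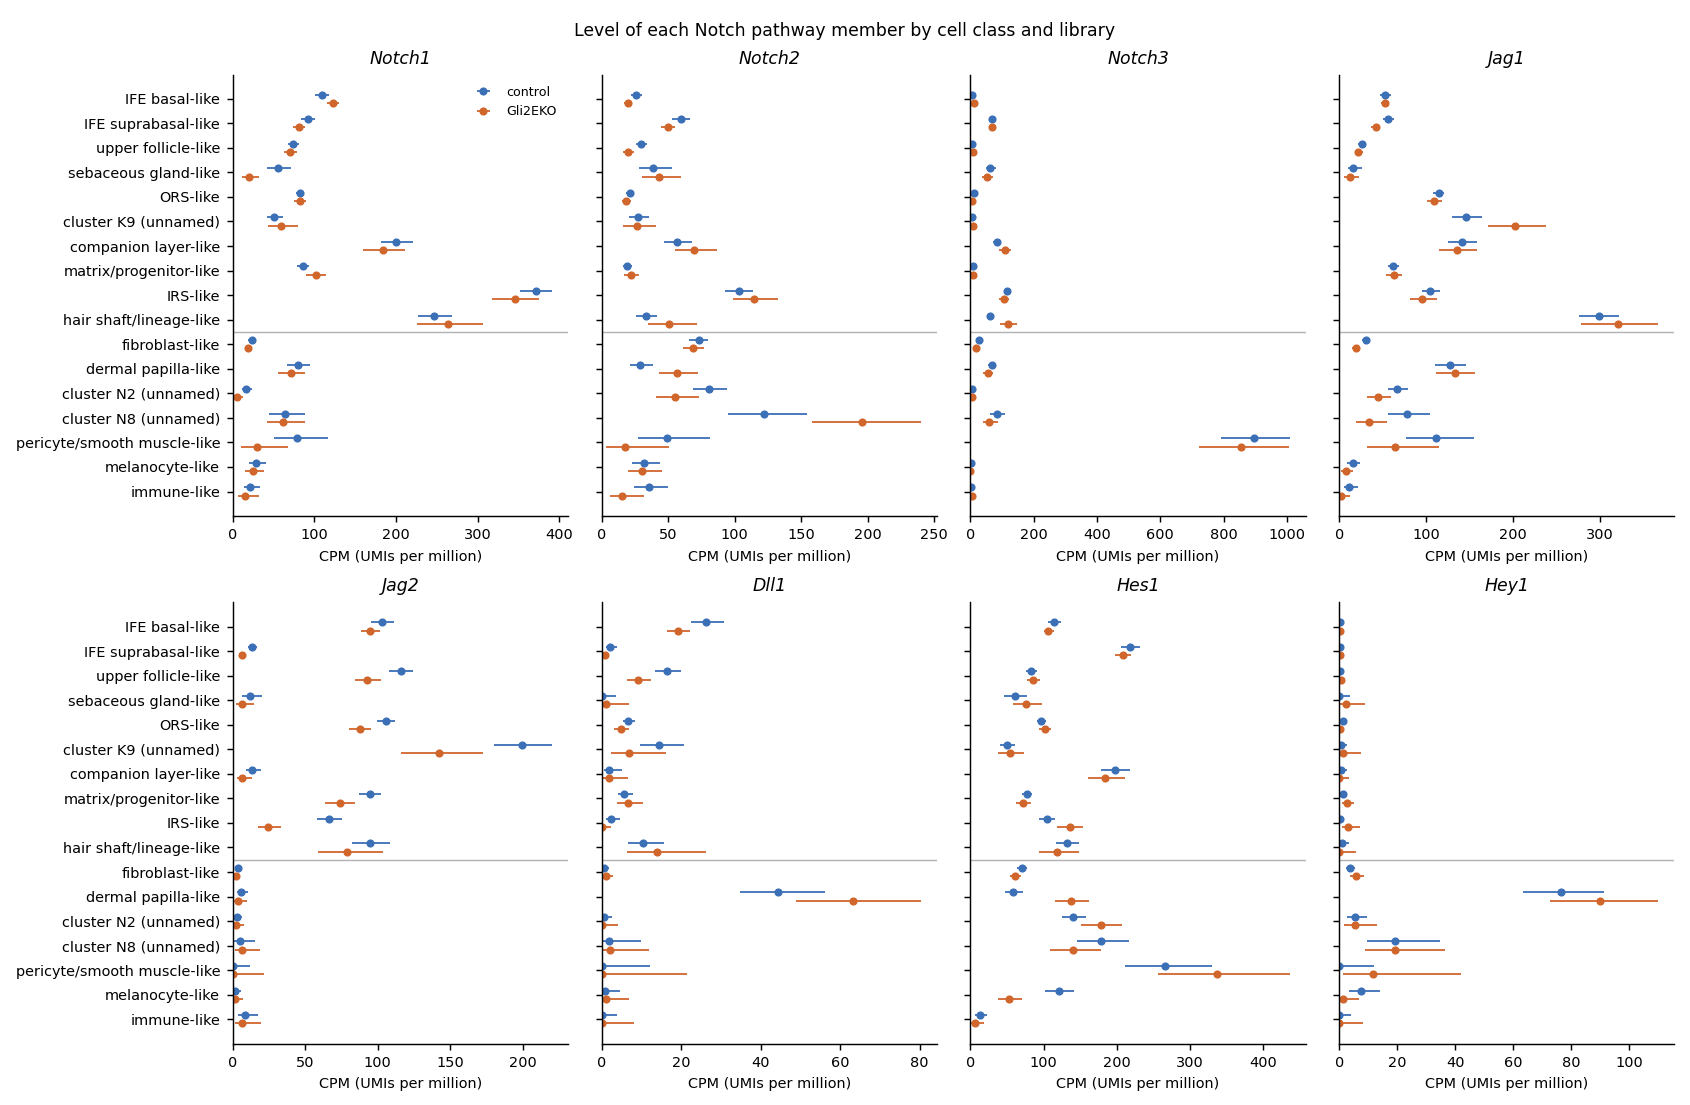
Level of each of the 8 genes (CPM, linear axis) in 17 cell classes, with control and Gli2EKO libraries as separate points and bars for 95% Poisson intervals of counting error. Notch3 and Hes1 are highest in pericyte/smooth muscle-like cells. Among keratinocyte classes, Notch1 and Notch3 sit high in IRS-like cells, Jag1 in hair shaft/lineage-like cells and Hes1 in IFE suprabasal-like and companion layer-like cells. Dll1 and Hey1 sit high in dermal papilla-like cells.

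Since classes differed in depth, each cell was also thinned to 2000 UMIs and the share of cells with a UMI was taken. Notch1 was detected in 49.3% (43.9 to 54.7) of control and 46.6% (37.9 to 55.5) of Gli2EKO IRS-like cells, against 19.1% and 22.1% of IFE basal-like cells. Immune-like cells, taken as a reference for background, gave 4.40% (4 of 91 cells) in control and 0 of 36 in Gli2EKO, which allows a share of up to 8.33%. Their median depths of 10048 and 12756 UMIs compare with 7689.5 and 8084 UMIs for IRS-like cells, and without thinning the Notch1 shares were 74.0% and 81.3% in IRS-like and 20.9% and 16.2% in immune-like cells. Expression by the immune-like cells themselves was not told apart from background. For Notch1, cluster N2 read less, with 16.4 and 5.53 CPM against 21.6 and 15.4 CPM in immune-like cells.

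In the same thinned cells, Notch3 was detected in 11.8% (7.87 to 16.8) and 16.4% (12.5 to 21.0) of IFE suprabasal-like cells and in 1.29% and 1.51% of basal-like cells, beside 0 of 91 and 0 of 36 immune-like cells. Jag2 showed the opposite order, with 19.1% and 14.9% of basal-like and 2.27% and 0.965% of suprabasal-like cells. Immune-like cells gave 0 of 91 and 1 of 36 (2.78%), too few cells to set the suprabasal-like shares of Jag2 apart from background. Hes1 was found in 24.5% and 25.4% of suprabasal-like and 13.1% and 14.3% of basal-like cells, beside 5 of 91 (5.49%) and 0 of 36 immune-like cells. Unthinned, the suprabasal-like shares were 72.7% and 65.6% for Notch3 and 72.3% and 63.7% for Hes1.

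The comparison of IFE suprabasal-like with IFE basal-like cells asks how these genes differ between classes named after layers of the surface epidermis. It was made within each library. The suprabasal-like class was mixed in its keratins, as the terciles below show, so its values are not those of a pure layer. Companion layer markers summed to 7463 and 7494 CPM in it, beside 59231 and 52976 CPM for its own markers. Notch3, Notch2 and Hes1 were higher and Jag2 and Dll1 lower in suprabasal-like cells, in both libraries. Notch3 was 10.6-fold higher in control (6.59 CPM in basal-like, 69.7 CPM in suprabasal-like cells), a log2 ratio of 3.40 (2.94 to 3.91). In Gli2EKO it was 6.69-fold higher (10.4 against 69.5 CPM), a log2 ratio of 2.74 (2.42 to 3.08). The intervals of the ratios overlapped, and a difference between the libraries was not tested.

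Notch2 was higher by 1.20 on the log2 scale (0.92 to 1.48) in control and by 1.33 (1.06 to 1.61) in Gli2EKO. Hes1 was higher by 0.93 (0.80 to 1.07) and 0.96 (0.84 to 1.08). For these genes too the intervals overlapped between the libraries.

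Jag2 was 7.84-fold lower in suprabasal-like than basal-like control cells, a log2 ratio of -2.97 (-3.35 to -2.61), and 14.6-fold lower in Gli2EKO, a log2 ratio of -3.87 (-4.34 to -3.42). The suprabasal-like level was near that of immune-like cells, but fibroblast-like cells read less, at 3.62 and 2.15 CPM. How much of the suprabasal-like level is background was not settled. Any background in it would make these folds lower bounds, and their order between the libraries is not read. Dll1 had log2 ratios of -3.63 (-4.66 to -2.75) and -4.67 (-6.31 to -3.42), from 11 and 5 UMIs in suprabasal-like cells. Jag1 was near the same level in both classes, with 0.08 (-0.15 to 0.32) in control and -0.33 (-0.55 to -0.11) in Gli2EKO. Notch1 was modestly lower in suprabasal-like cells, at -0.25 (-0.42 to -0.08) in control and -0.61 (-0.76 to -0.46) in Gli2EKO. These intervals did not overlap, and the difference between the libraries was not tested. The Gli2EKO value was -0.42 without doublet removal. Hey1 gave at most 4 UMIs in any of these 4 sets of cells, and no ratio is read from it.

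Of the 7 genes with at least 20 UMIs, 3 were higher by at least 1.5-fold and 2 lower in control suprabasal-like cells, beside 13.1% of all 12271 genes measured that were higher and 32.9% that were lower. In Gli2EKO 3 were higher and 3 lower, with Notch1 added to Jag2 and Dll1, beside 12% higher and 35.5% lower of 12798 genes. The count of lower genes is thus near the background share, and the comparison rests on the size of single ratios, those of Notch3, Jag2 and Dll1 above all.

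**Figure D2:**
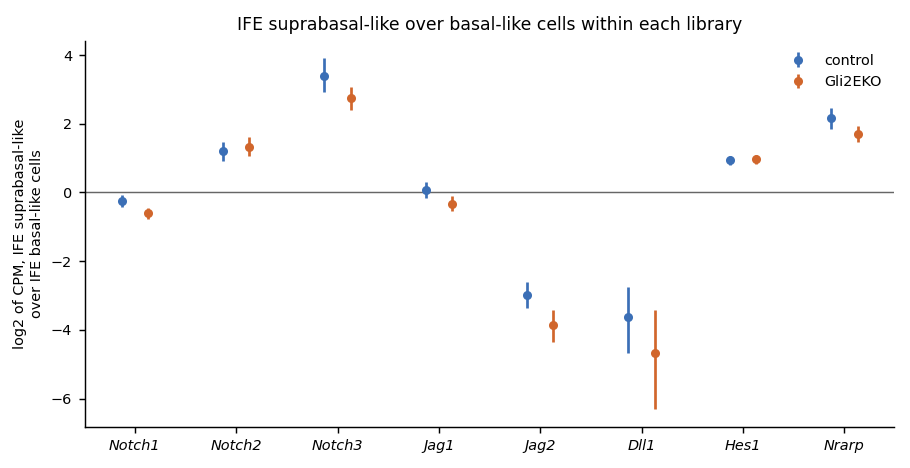
Log2 ratio of the level in IFE suprabasal-like over IFE basal-like cells for each gene, in control and Gli2EKO, with bars for 95% intervals of counting error. Notch3 stands at 3.40 and 2.74, and Jag2 and Dll1 lie below -2.9 in both libraries.

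The other 47 genes of the pathway give the setting. In control, 34 of them had at least 20 UMIs, of which 2 were at least 1.5-fold higher in suprabasal-like cells and 9 lower. This stands beside the 13.1% and 32.9% of all genes given above. Their median log2 ratio was -0.20 beside -0.25 over all genes. In Gli2EKO it was 36 measured, 3 higher and 12 lower, beside 12% and 35.5% of all genes, with a median of -0.33 beside -0.31. Nrarp, a target gene that feeds back to dampen Notch signalling, was higher in suprabasal-like cells, with 18.8 and 83.9 CPM in control (log2 ratio 2.16) and 25.8 and 83.3 CPM in Gli2EKO (1.69).

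Among the lower genes was Dlk2, a non-canonical ligand, which read 33.4 CPM in basal-like and 3.29 CPM in suprabasal-like control cells and 30.5 and 1.51 CPM in Gli2EKO. Lfng, a glycosyltransferase that modifies the receptors, was lower too, with 9.64 and 0.775 CPM in control and 10.3 and 1.36 CPM in Gli2EKO. Maml2, a coactivator of the Rbpj complex, had log2 ratios of -1.12 and -1.11. Rbpj and Maml1 stayed within 1.5-fold in both libraries. The proteases as a group held 9 measured genes in control with a median of 0.05, and 10 in Gli2EKO with a median of -0.01.

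**Figure D3:**
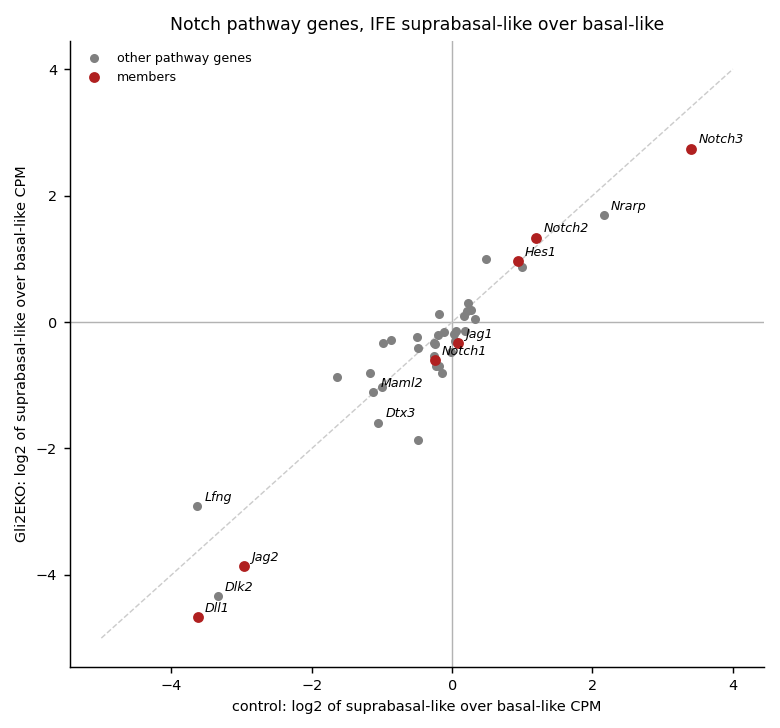
Log2 ratio of IFE suprabasal-like over IFE basal-like cells in Gli2EKO (vertical axis) against control (horizontal axis) for 7 of the 8 genes (all but Hey1) and the other pathway genes with at least 20 UMIs. Notch3 and Nrarp lie at the upper right, and Jag2, Dll1, Dlk2 and Lfng at the lower left.

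Within the suprabasal-like class, cells were ordered by the share of Krt1 and Krt10, the suprabasal keratins, among the UMIs of these and of Krt5 and Krt14, the basal keratins, and divided into terciles in each library. This is a range cut from a score and not a set of cell types, and 98 control and 62 Gli2EKO cells lay within 5 percentage points of a cut. The median share was 12.4% in the lowest and 99.6% in the highest tercile of control, and 17.7% and 99.3% in Gli2EKO. Most keratin UMIs of the lowest tercile were thus typically those of the basal keratins. Notch1 declined along it, from 143 CPM (123 to 164) in the lowest to 102 CPM and 49.2 CPM (40.0 to 59.8) in the highest tercile of control cells. In Gli2EKO cells it went from 140 CPM (123 to 158) to 84.0 CPM and 41.1 CPM (33.9 to 49.4). The suprabasal-like cells with the fewest suprabasal keratins thus held at least as much Notch1 as basal-like cells.

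Notch2 was highest in the highest tercile, with 49.0, 48.2 and 76.7 CPM in control and 38.8, 46.2 and 58.9 CPM in Gli2EKO. In control the highest tercile (65.2 to 89.8) stood apart from the middle (38.5 to 59.6), which was level with the lowest. In Gli2EKO the intervals of neighbouring terciles overlapped, while those of the lowest (30.1 to 49.3) and highest (50.2 to 68.7) did not. Notch3 was present in all terciles, at 60.7, 71.5 and 74.3 CPM in control and 85.7, 65.8 and 62.2 CPM in Gli2EKO, with overlapping intervals between neighbouring terciles. In Gli2EKO the intervals of the lowest (72.5 to 101) and highest tercile (53.2 to 72.2) did not overlap, while those of control did. Hes1 stayed between 193 and 247 CPM in all 6 sets of cells. Its control intervals in the middle (175 to 216) and highest tercile (226 to 269) did not overlap.

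Split instead by Lor, Flg, Flg2, Cnfn and Hrnr, genes of the granular layer, 103 of 220 control cells (46.8%) and 187 of 311 Gli2EKO cells (60.1%) held no UMI of them, so that only an upper tercile could be set against the rest. The summed level of these genes was 9769 CPM in control and 1909 CPM in Gli2EKO suprabasal-like cells, and most of it came from 16 and 10 cells with at least 1% of their UMIs from these genes. Their part in the member levels was not tested. Notch1 was again lower in the upper tercile, with 65.3 against 110 CPM in control and 56.9 against 95.3 CPM in Gli2EKO. Hes1 took opposite directions, with 190 against 238 CPM in control and 247 against 184 CPM in Gli2EKO.

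IRS-like cells were ordered in the same way by the share of their UMIs from the IRS keratins and Tchh, with cuts taken over both libraries. The median share was 0.015% in the lowest and 0.59% in the highest tercile of control, and 0% and 0.64% in Gli2EKO. In the lowest tercile these genes thus give little or no backing to the IRS name, and the identity of those cells was not tested. Jag2 was concentrated in the cells with the fewest IRS keratins. In control it read 203 CPM (173 to 238) in the lowest, 52.3 CPM in the middle and 11.2 CPM (6.52 to 17.9) in the highest tercile. In Gli2EKO it read 86.9 CPM (58.2 to 125), 9.59 CPM from 3 UMIs, and 8.01 CPM (3.46 to 15.8).

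Jag1 declined less, from 180 to 58.6 CPM in control and from 153 to 84.1 CPM in Gli2EKO. Notch1 was highest in the middle tercile, with 321, 427 and 345 CPM in control and 341, 582 and 272 CPM in Gli2EKO. Hes1 was lowest in the lowest tercile, at 67.3 CPM in control and 62.9 CPM in Gli2EKO, against 116 CPM in the highest tercile of each library, and the middle tercile of Gli2EKO read 275 CPM from 86 UMIs. The terciles held 107, 131 and 108 control and 55, 30 and 54 Gli2EKO cells, of which 118 and 29 lay within 1.5-fold of a cut, and median depth went from 6041 to 12491.5 UMIs in control and from 4983 to 14874.5 UMIs in Gli2EKO.

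**Figure D4:**
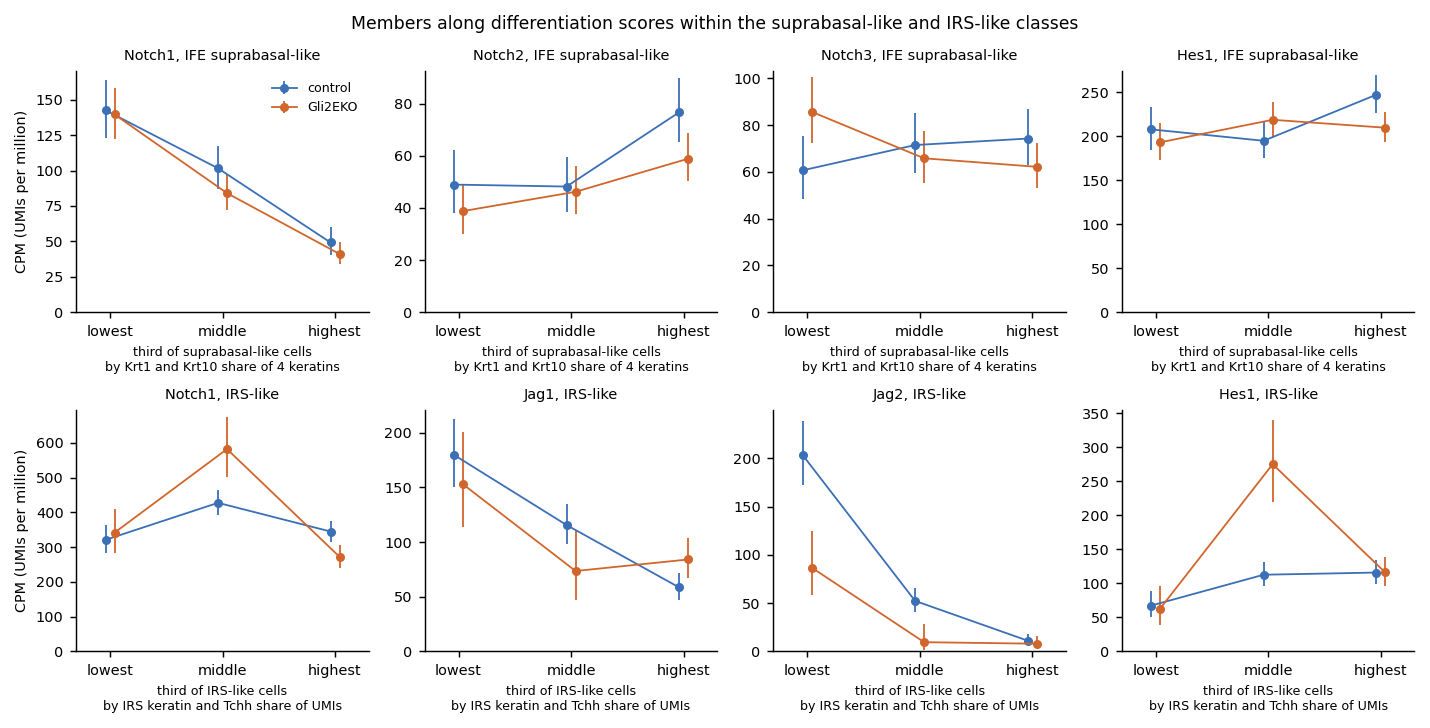
Level (CPM) of the genes in terciles of IFE suprabasal-like cells by suprabasal keratin share and of IRS-like cells by IRS keratin and Tchh share, for control and Gli2EKO, with bars for 95% Poisson intervals. Notch1 declines along the suprabasal terciles, and Jag2 is highest in the lowest IRS tercile of both libraries.

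The comparison of Gli2EKO with control asks whether loss of Gli2 in keratinocytes went with other levels of the Notch genes. Over all keratinocytes, 0 of the 8 genes differed by 1.5-fold, beside 6.12% of 18490 genes that were higher and 12.3% that were lower in Gli2EKO. Their median log2 ratio was -0.12, beside -0.14 over all genes. Jag2 was lowest, with 88.9 CPM in control and 66.2 CPM in Gli2EKO, a log2 ratio of -0.43 (-0.50 to -0.35). Jag1 read 88.4 and 69.8 CPM, a log2 ratio of -0.34 (-0.42 to -0.27). Hes1 read 112 and 123 CPM, a log2 ratio of 0.13 (0.07 to 0.19).

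The class mix bears on these values. With Gli2EKO classes weighted to the control shares, Jag1 came to -0.10, Hes1 to -0.011, Notch1 from -0.12 to 0.0035 and Notch2 from -0.12 to -0.013. Jag2 kept most of its difference, at -0.37, and Dll1 moved from -0.25 to -0.52. Notch3 went from 0.05 to 0.12. In the 9 keratinocyte classes with at least 20 Jag2 UMIs its log2 ratio was below 0, between -1.45 and -0.12, and the median over all genes was below 0 in each of these classes too, between -0.12 and -0.00035.

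By class, 4 were looked at in full. In IFE basal-like cells 1 of 7 measured genes was higher by 1.5-fold, Notch3, and 0 lower, beside 5.44% higher and 7.5% lower of all genes. Notch3 there had a log2 ratio of 0.66 (0.11 to 1.23), which was 0.28 without doublet removal and 0.20 with a limit of 5% mitochondrial UMIs. In IFE suprabasal-like cells 0 of 6 were higher and 1 lower, Jag2, with a log2 ratio of -1.02 (-1.61 to -0.45), beside 4.65% and 10.1% of all genes. This ratio compares low levels: Jag2 read 13.2 and 6.50 CPM there, beside 8.65 and 6.60 CPM in immune-like cells. The other non-keratinocyte classes read at most 5.64 CPM in control and 6.39 CPM in Gli2EKO.

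In IRS-like cells 0 of 6 were higher and 1 lower, again Jag2, beside 7.53% and 14.5% of all genes. It read 66.5 CPM (58.4 to 75.4) in control and 24.3 CPM (17.4 to 33.1) in Gli2EKO, a log2 ratio of -1.45 (-1.97 to -0.97). This was -0.67 at a finer clustering and -0.73 with the limit of 5% mitochondrial UMIs. The summed level of IRS keratins and Tchh was 7133 CPM in control and 16401 CPM in Gli2EKO IRS-like cells. Jag2 was lower in each tercile of that score, as given above, with intervals that overlapped in the highest.

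In dermal papilla-like cells, which the transgene does not target, 2 of 7 genes were higher, Notch2 and Hes1, and 0 lower, beside 8.3% higher and 8.64% lower of all genes. Hes1 read 58.3 CPM (47.1 to 71.4) in control and 138 CPM (116 to 162) in Gli2EKO, a log2 ratio of 1.24 (0.85 to 1.63). It came from 43 of 193 control and 39 of 155 Gli2EKO cells, and the cell with the most UMIs held 14.0% and 14.6% of them. Cluster N3 read 91.6 and 200 CPM (log2 ratio 1.13, 0.66 to 1.62) and cluster N5 read 38.8 and 47.0 CPM (0.28, -0.58 to 1.09). The intervals of the clusters overlapped and their difference was not tested. N3, in which Hes1 was higher in both libraries, made up more of the class in Gli2EKO (96 of 155 cells) than in control (81 of 193), and the ratio of the class, which lies above that of either cluster, includes this shift. Without doublet removal it was 0.76.

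Notch2 read 28.8 and 56.5 CPM in dermal papilla-like cells, a log2 ratio of 0.97 (0.39 to 1.56), from 46 and 59 UMIs. Within clusters it was 0.41 (-0.27 to 1.10) in N3 and 1.24 (0.01 to 2.47) in N5. Hey1 and Dll1, the genes most characteristic of these cells, had log2 ratios of 0.23 (-0.17 to 0.63) and 0.50 (from just under 0 to 1.01). Other gene groups moved in the same class: the 6 immediate early genes summed to 2945 CPM in control and 1857 CPM in Gli2EKO, the 5 pigment genes to 15.7 and 197 CPM and the 2 smooth muscle genes to 64.6 and 170 CPM, while all 7 dermal papilla markers were detected in both libraries. Their part in the Notch gene values was not tested.

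Over all 17 classes, 98 pairs of gene and class had at least 20 UMIs. Of these, 5 (5.10%) were higher and 12 (12.2%) lower in Gli2EKO by at least 1.5-fold with an interval that left out 0, beside 3.82% higher and 6.51% lower of the 172361 pairs over all genes. For the other pathway genes it was 12 (2.29%) higher and 33 (6.29%) lower of 525 pairs. Several of the 17 rested on few UMIs, such as Notch1 in sebaceous gland-like cells (57 and 16 UMIs), cluster N2 (34 and 5 UMIs) and pericyte/smooth muscle-like cells (24 and 5 UMIs).

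The pairs with more UMIs were mixed in direction for the receptor Notch3. It was higher in Gli2EKO hair shaft/lineage-like cells (log2 ratio 0.94, 0.51 to 1.35) and lower in ORS-like cells (12.7 and 6.49 CPM, -0.97, -1.53 to -0.44) and fibroblast-like cells (28.6 and 16.5 CPM, -0.80, -1.23 to -0.38). The fibroblast-like value was -0.54 without doublet removal. In the hair shaft/lineage-like class, hair shaft markers summed to 3420 CPM in control and 10485 CPM in Gli2EKO. Hair lineage markers summed to 3756 and 2604 CPM there. The part of this shift in the Notch3 value was not tested. The cell with the most Notch3 UMIs held 4.44% of them in control and 11.8% in Gli2EKO. Jag1 was lower in fibroblast-like cells, with 30.7 and 19.1 CPM, a log2 ratio of -0.69 (-1.09 to -0.30) that was -0.54 without doublet removal.

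Dll1 was lower in upper follicle-like cells, with 16.5 and 9.11 CPM, a log2 ratio of -0.86 (-1.42 to -0.32) that was -0.10 without doublet removal. Hes1 was lower in melanocyte-like cells, with 120 and 52.5 CPM, a log2 ratio of -1.20 (-1.72 to -0.70) that was -0.16 without doublet removal. The immediate early genes summed to 1233 and 542 CPM in the same melanocyte-like cells, and their part was not tested.

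**Figure D5:**
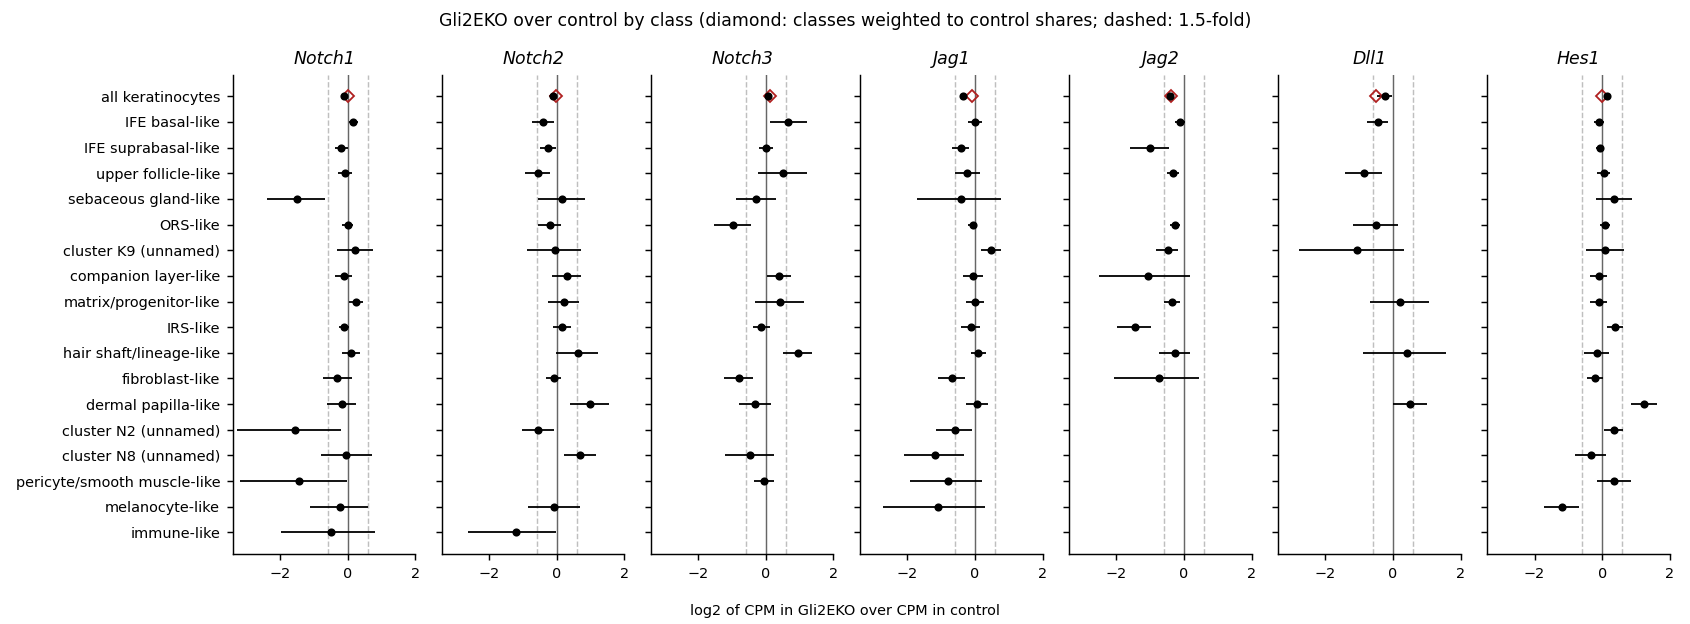
Log2 ratio of Gli2EKO over control for each gene in each class with at least 20 UMIs, with bars for 95% intervals of counting error. Most points lie within 1.5-fold of 0, and the Jag2 ratios in IFE suprabasal-like and IRS-like cells lie at -1.02 and -1.45.

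The other pathway genes over all keratinocytes were 43 measured of 47, with 3 higher (Notch4, Dlk1 and Hes7) and 1 lower by 1.5-fold. This stands beside 6.12% higher and 12.3% lower of all 18490 genes. Their median log2 ratio was -0.22, beside -0.14 over all genes. The higher genes were sparse in IFE suprabasal-like and basal-like cells of both libraries together: 1 and 8 UMIs for Notch4, 9 and 24 for Dlk1, and 8 and 6 for Hes7. The lower gene was Heyl, a Hes-related repressor and Notch target, with 4.77 CPM in control and 1.74 CPM in Gli2EKO, a log2 ratio of -1.46 (-1.90 to -1.03). IRS-like cells held 115 of its 220 control and 24 of its 58 Gli2EKO UMIs, at 31.5 and 14.6 CPM. Dermal papilla-like cells held 52.7 and 52.6 CPM of Heyl.

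Detection of pairs of genes in the same cell, after thinning to 5000 UMIs, was within counting error of the product of the single shares in all but 7 of 140 combinations of pair, class and library. IRS-like cells had both Notch1 and Notch2 in 24.0% of 271 control cells, beside 23.0% for the product, and in 24.7% of 97 Gli2EKO cells, beside 23.0%. IFE suprabasal-like cells had both Notch3 and Hes1 in 14.9% of 215 and 15.5% of 296 cells, beside products of 15.9% and 14.1%.

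In these 7 the share was above the product, and in 0 combinations it was below. With 140 combinations, 95% intervals can leave out the product in some by counting error alone, so single exceptions are not read as a link between genes. The 7 include Notch1 with Jag1 in Gli2EKO sebaceous gland-like cells, from only 2 of 26 cells. Of the 7, 3 were in hair shaft/lineage-like cells. These had both Notch1 and Notch3 in 18.8% (13.3 to 25.3) of 176 control cells, beside 9.30%, and in 28.6% (17.3 to 42.2) of 56 Gli2EKO cells, beside 14.8%. Notch1 with Jag1 were in 32.4% (25.5 to 39.8) of control cells, beside 24.4%. In Gli2EKO cells they were in 42.9% (29.7 to 56.8), an interval that takes in the product of 30.5%. IRS-like control cells had both Notch1 and Notch3 in 30.6% (25.2 to 36.5), beside 24.3%, against 24.7% and 23.0% in Gli2EKO. Cells of this class are not replicates of each other, and this is given as a description.

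The genes with the most similar pattern were taken by Pearson's correlation of log2(CPM + 10) over the 34 values of 17 classes in 2 libraries, again as a description. Jag2 was matched most closely by Itga3 (0.94), Fermt1 (0.92) and Itgb4 (0.90), of which Itga3 and Itgb4 encode integrin subunits found on basal keratinocytes. Hey1 was matched by Rab6b (0.97), Clstn2 (0.95) and Ndp (0.94). Since Hey1 read at most 19.4 CPM outside the dermal papilla-like class, these values rest largely on that class. For Notch1 the closest genes were Epb41l5 (0.88), Usp3 (0.88) and Rabgap1 (0.85).

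For Notch3 the closest were Pcdh1 (0.80), Epb41l1 (0.74) and Fosl2 (0.73), for Notch2 Ipo4 (0.78), Trim16 (0.76) and Sphk1 (0.74), and for Jag1 Camsap1 (0.81), Slc44a1 (0.79) and Man1a2 (0.79). For Dll1 they were Klhl32 (0.83), D16Ertd472e (0.80) and Ssbp2 (0.79). Hes1 had the weakest matches, with Dstn (0.77), Epn2 (0.72) and Atp9a (0.70).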

How the data were processed

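Cells were prepared by the authors with the 10x Genomics 3′ chemistry and counted with Cell Ranger 9.0.1 against GRCm39. They deposited a matrix of UMI counts for each library, which was used as raw counts. CPM, percent of cells and log2 ratios were computed here from those deposited counts and are not the authors' values.

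Cells with more than 1000 and fewer than 8000 genes and under 15% mitochondrial UMIs were kept, after the limits in the study's methods, and the 8% of cells with the highest Scrublet score (scanpy 1.11.5) were removed in each library as likely doublets, in place of the study's caller. Clustering in Seurat 5.3.0 (R 4.3.3) used 2000 variable genes without the 55 Notch pathway genes, 20 principal components, an integration step rewritten after Harmony and a resolution of 0.5, first over all cells and then over keratinocytes. Clusters were named from 137 marker genes (136 of them counted), with at least 3 detected. For each class in each library the UMIs of a gene were added up and divided by the UMIs of all genes in the same cells. Intervals are exact Poisson (CPM), Clopper-Pearson (shares) and conditional binomial (ratios) at 95%; an upper limit for 0 UMIs is 3 counts. Counts of genes past 1.5-fold use genes with at least 20 UMIs and 0.5 UMIs added. No test was run because each genotype has 1 library.

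The 8 genes, the pathway list and the markers were chosen with earlier results of these data known. The genes named are the 8 genes, the pathway genes past 1.5-fold or at the ends of a role, the markers, Gli2 and the 3 genes most correlated with each of the 8. A pathway gene that met this rule is not reported here. The split of suprabasal-like cells by keratin share and the joint cuts for IRS-like cells were added after the data were seen, because the planned terciles by granular genes collapsed. Ratios were recomputed without doublet removal, without integration, at a resolution of 1.0, with a 5% mitochondrial limit, without the 50 genes with the most UMIs and with classes weighted. Gene positions are from GENCODE annotation of GRCm39 matched by gene ID (8 of 8). Scripts were tested on simulated data.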

Additional observations from a re-analysis of the deposited data

Results flagged for a closer look

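The ratios of Gli2EKO over control of 3 genes pointed in opposite directions in different classes by more than 1.5-fold, with intervals of counting error that left out 0. The difference between classes was not tested in any of these cases, since each genotype has 1 library. Hes1 had a log2 ratio of 1.24 in dermal papilla-like and -1.20 in melanocyte-like cells, which came to 0.76 and -0.16 without doublet removal. Notch2 had 0.97 in dermal papilla-like cells and 0.69 in cluster N8 against -1.21 in immune-like cells, the last from 33 and 7 UMIs and at -0.31 without doublet removal. Notch3 had 0.66 in IFE basal-like and 0.94 in hair shaft/lineage-like cells against -0.97 in ORS-like and -0.80 in fibroblast-like cells; the IFE basal-like value was 0.28 without doublet removal and 0.20 with a limit of 5% mitochondrial UMIs, and the fibroblast-like value was -0.54 without doublet removal. Marker levels of the hair shaft/lineage-like class differed between the libraries, as given above. With fewer than 4 libraries in a group, no library could be tested as standing apart from its group.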

How the results depend on the processing

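No paired analysis was possible because each genotype has 1 library, and for the same reason no library could be left out. Over all keratinocytes, weighting the Gli2EKO classes to control shares gave log2 ratios of -0.52 for Dll1, -0.011 for Hes1, -0.10 for Jag1, 0.0035 for Notch1 and -0.013 for Notch2, and the limit of 5% mitochondrial UMIs gave -0.26 for Jag1. The suprabasal-like over basal-like log2 ratio of Notch1 in Gli2EKO was -0.42 without doublet removal. Under the 5% limit no cluster was named IFE suprabasal-like, so that this comparison has no value there. The count of genes past 1.5-fold over all keratinocytes was 1132 higher and 2271 lower with a minimum of 20 UMIs, 475 and 1136 with a minimum of 100, and 4831 and 7462 with at least 1 UMI. Of the 17 pairs of gene and class past 1.5-fold, 17 of 17 stayed past it at a resolution of 1.0 and without the 50 genes with the most UMIs, 14 of 15 with a value did so without integration, 11 of 13 with the 5% limit and 8 of 14 without doublet removal, and 0 changed sign. Without doublet removal Dll1 in upper follicle-like cells came to -0.10, Hes1 in melanocyte-like cells to -0.16 and Notch2 in immune-like cells to -0.31, and with the 5% limit Notch1 in sebaceous gland-like cells came to -0.40; the cause was not tested. Thinned to 5000 in place of 2000 UMIs, 152 of 272 shares of cells moved beyond their interval. Depth limits Hey1 in keratinocytes and Dll1 in IFE suprabasal-like and IRS-like cells, where a few UMIs carry each value.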
